A study of Homo sapiens with 4 samples.

Results

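The 47 genes described here are interferon-stimulated genes, a set named by gene symbol, and every symbol was found once among the 61806 genes of the expression table. Messenger RNA was sequenced from JJ012, an established human chondrosarcoma (malignant cartilage tumour) cell line, and from 143B, an established human osteosarcoma (malignant bone tumour) cell line. All cells were kept in suspension, which deprives adherent cells of their attachment. For each line, 1 library came from untreated control cells and 1 from cells given 1 mM melatonin for 72 h. With 1 library in each of the 4 groups there was no replicate, so no test was possible, and every difference below is one between libraries.

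Cells that sense viral nucleic acid, or their own misplaced nucleic acid, secrete interferons. These bind receptors whose JAK kinases activate STAT proteins, and STAT2 with IRF9 in the factor ISGF3 switches on interferon-stimulated genes through a promoter sequence called the interferon-stimulated response element. The products block steps of virus replication, and tumour cell lines are known to differ widely in how much of this programme they express without added interferon.

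RefSeq promoter windows (build GRCh38.p14, from 250 bases before to 50 bases after the start site) were matched to 36 of the 47 genes by symbol. Of these, 28 had a single window, and for the rest only the first listed window was searched. The core of the response element, searched as GAAANNGAA on both strands, was present in 25 of the 36 windows (69.4%) and in 8.29% of the 27305 windows of all genes, or 7.06% of the 15843 of protein-coding genes. At least 2 matches stood in 16 windows. The gamma-activated sequence, searched as TTCNNNGAA, which is its own reverse complement, was present in 9 of the 36 windows (25.0%) and in 7.88% of all windows. Both letter patterns were present in 5 windows, overlapping each other in 4, and neither in 7. The 6 windows below are shown because their genes carry the main differences: IFI6, ISG15 and BST2 were genes with high JJ012 levels that were lower after melatonin, DTX3L was higher after melatonin in JJ012, and HERC5 and PARP12 were at or near 0 counts in JJ012 and present in 143B. Sequences run 5′ to 3′ along the gene's strand, and capitals mark matches to GAAANNGAA or its reverse complement TTCNNTTTC.
IFI6: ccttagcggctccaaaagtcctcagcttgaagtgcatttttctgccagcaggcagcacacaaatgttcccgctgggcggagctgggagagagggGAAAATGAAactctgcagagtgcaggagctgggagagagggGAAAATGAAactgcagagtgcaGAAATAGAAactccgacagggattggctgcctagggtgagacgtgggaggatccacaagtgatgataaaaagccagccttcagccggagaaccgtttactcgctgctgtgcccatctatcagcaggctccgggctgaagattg
ISG15: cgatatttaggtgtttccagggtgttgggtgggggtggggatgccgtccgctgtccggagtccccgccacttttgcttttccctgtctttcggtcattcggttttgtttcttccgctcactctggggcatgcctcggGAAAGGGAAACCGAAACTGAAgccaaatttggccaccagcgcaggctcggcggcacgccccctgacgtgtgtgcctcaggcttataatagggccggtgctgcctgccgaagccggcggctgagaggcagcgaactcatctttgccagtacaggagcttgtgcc
BST2: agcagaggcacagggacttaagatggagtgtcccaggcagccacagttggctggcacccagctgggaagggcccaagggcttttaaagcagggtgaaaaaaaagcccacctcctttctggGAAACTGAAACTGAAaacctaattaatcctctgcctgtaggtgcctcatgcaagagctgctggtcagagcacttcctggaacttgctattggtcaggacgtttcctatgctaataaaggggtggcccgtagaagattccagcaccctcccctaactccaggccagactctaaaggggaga
DTX3L: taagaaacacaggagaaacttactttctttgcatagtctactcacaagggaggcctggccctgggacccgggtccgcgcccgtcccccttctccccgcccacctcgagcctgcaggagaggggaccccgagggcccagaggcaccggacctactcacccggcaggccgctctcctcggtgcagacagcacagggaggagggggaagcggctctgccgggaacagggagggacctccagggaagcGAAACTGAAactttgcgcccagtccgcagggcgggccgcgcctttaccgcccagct
HERC5: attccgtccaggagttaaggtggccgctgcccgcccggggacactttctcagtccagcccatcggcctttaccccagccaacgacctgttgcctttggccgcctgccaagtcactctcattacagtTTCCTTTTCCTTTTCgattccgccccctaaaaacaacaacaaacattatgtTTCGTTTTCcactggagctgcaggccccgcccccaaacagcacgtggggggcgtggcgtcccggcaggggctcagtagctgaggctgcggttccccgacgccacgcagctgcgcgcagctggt
PARP12: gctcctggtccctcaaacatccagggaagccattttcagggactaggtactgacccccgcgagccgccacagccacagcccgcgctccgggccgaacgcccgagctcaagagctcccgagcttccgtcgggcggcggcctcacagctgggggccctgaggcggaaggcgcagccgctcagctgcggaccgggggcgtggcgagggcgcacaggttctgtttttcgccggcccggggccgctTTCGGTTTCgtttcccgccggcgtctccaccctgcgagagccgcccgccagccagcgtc

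The IFI6 window (chr1:27672143-27672442, minus strand) held 3 matches, centred 152, 111 and 89 bases before the start site. The ISG15 window (chr1:1013247-1013546, plus strand) held a run of 3 overlapping matches, at 109, 103 and 97 bases before the start. The BST2 window (chr19:17405581-17405880, minus strand) held 2 overlapping matches, and the DTX3L window (chr3:122564088-122564387, plus strand) held 1, centred 2 bases before the start. The HERC5 window (chr4:88456869-88457168, plus strand) held 3 matches and the PARP12 window (chr7:140062902-140063201, minus strand) held 1. Of the 3 genes at or under the floor in both JJ012 libraries, HERC5 and PARP12 thus held a match. The first of 3 listed windows of CMPK2 held none, and its others were not searched. The 25 genes with a match had a median level of 11.02 FPKM in the JJ012 control and 2.49 FPKM in the 143B control. The 11 without a match had medians of 1.98 and 0.49 FPKM. The search fixed the spacer and so missed shorter ones. The windows of OAS1, DDX58 and XAF1 hold GAAACGAAA and that of IFI35 holds GAAATGAAA, and these genes count as without a match. A match describes the letters only and shows no bound factor.

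**Figure D1:**
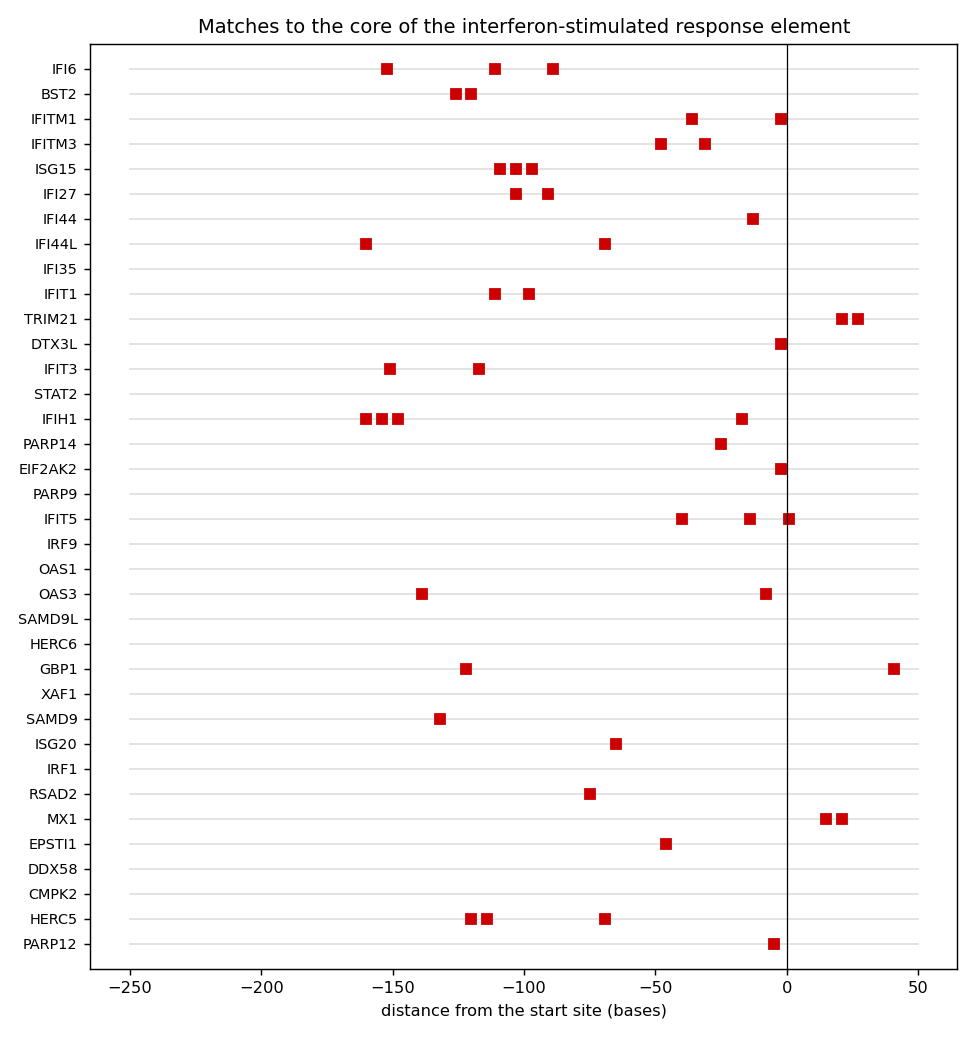
Positions of matches to the core of the interferon-stimulated response element (red squares) in the first listed promoter windows of 36 interferon-stimulated genes, ordered by level in the JJ012 control, highest at the top. The x axis gives the distance from the start site in bases, and 25 of the 36 windows hold at least 1 match.

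Levels were read as FPKM, the counts of a gene divided by its exonic length and by the library total. The libraries held between 15889564 and 19218343 counts, so that 3 counts, taken as the floor of detection, were 0.156 to 0.189 CPM, the counts of a gene scaled to the library total alone. Fold changes were computed as log2(FPKM + 1) differences, a scale that understates the change of low genes, and a gene was called higher or lower at an absolute value of at least 0.58 (1.49-fold) where it reached 1 FPKM in at least 1 of the 2 libraries. For single genes the ratio of CPM was given with its exact (Clopper-Pearson) 95% interval, which covers counting error only and no variation between cultures. In bulk RNA, fewer cells carrying a transcript and less transcript per cell cannot be told apart.

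The tissue labels were checked on marker genes. Among the 6 chondrocyte markers, only SOX9 reached 1 FPKM (6.16 to 15.48 FPKM over the 4 libraries), and the cartilage collagen gene COL2A1 held at most 5 counts. Among the 6 osteoblast markers, RUNX2 stood at 2.59 to 4.28 FPKM in all 4 libraries, IBSP held at most 4 counts, and SPP1 was higher in JJ012 (79.39 and 64.50 FPKM) than in 143B (0.40 and 0.53 FPKM). BGLAP reached 1 FPKM in 143B alone (1.44 and 1.21 FPKM). Of the matrix genes, COL2A1, ACAN and IBSP were thus at or near 0 and SPP1 was not, and the lines are called by their names here.

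Interferon-stimulated transcripts were abundant in JJ012 and scarce in 143B. They made up 0.800% of all counts in the JJ012 control, 0.413% in JJ012 after melatonin, 0.0923% in the 143B control and 0.0789% in 143B after melatonin. At least 1 FPKM was reached by 38, 34, 23 and 21 of the 47 genes in these 4 libraries, and at least 100 FPKM by 6, 4, 0 and 0. The median level of the 47 genes was 4.81 FPKM in the JJ012 control, 5.18 FPKM in JJ012 after melatonin, and 0.96 and 0.70 FPKM in 143B. The summed level in JJ012 was 5006.05 FPKM in the control and 2108.62 FPKM after melatonin, so the sum was lower while the median level was not. Without IFI6, BST2, IFITM1, IFITM3 and ISG15, the 5 genes with the highest levels in JJ012, the sums were 600.38 and 356.45 FPKM in JJ012. Without the same 5, which are not the highest in 143B, they were 177.11 and 160.80 FPKM in 143B.

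**Figure D2:**
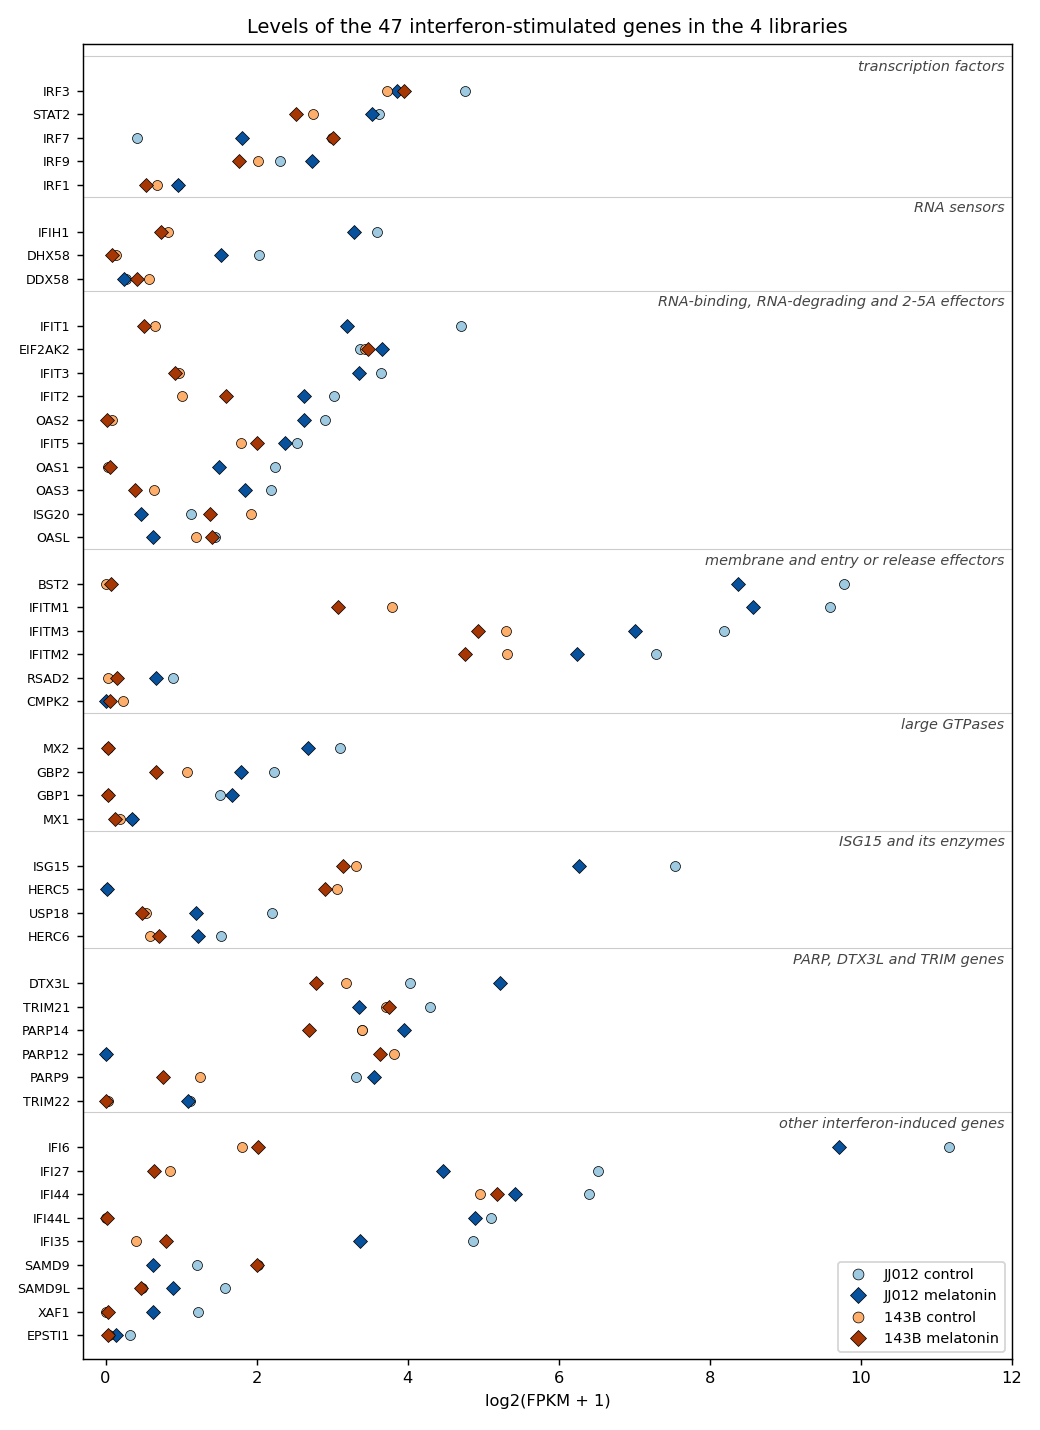
Level of each of the 47 interferon-stimulated genes, as log2(FPKM + 1) on the x axis, in the 4 libraries, grouped by role. Circles are control libraries and diamonds melatonin libraries, 1 library each, and a circle may lie under its diamond, as for HERC5 and PARP12 in JJ012. The right-hand points, up to 2285.42 FPKM for IFI6, are all of JJ012.

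In JJ012, melatonin against control, 39 of the 47 genes passed the level filter. Of these, 18 were lower (46.2%), 2 were higher (5.13%) and 19 were neither, where 18.6% of all 15794 genes past the filter were lower and 19.6% were higher. Among protein-coding genes, the type of all 47, 16.1% were lower and 17.8% were higher. The median of the 39 log2 fold changes was -0.51, and that of all genes was 0.01. By the control library alone 5 of the 39 passed, by the melatonin library alone 1, and of the 33 that passed by both, 14 were lower and 1 was higher. With no filter, 18 of the 47 were lower and 2 higher, where 5.76% of all 61806 genes were lower and 5.78% higher. Counting intervals lay below 0 for 32 of the 44 genes over the floor in both libraries and above 0 for 6, against 32.3% and 30.1% of all genes over the floor.

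**Figure D3:**
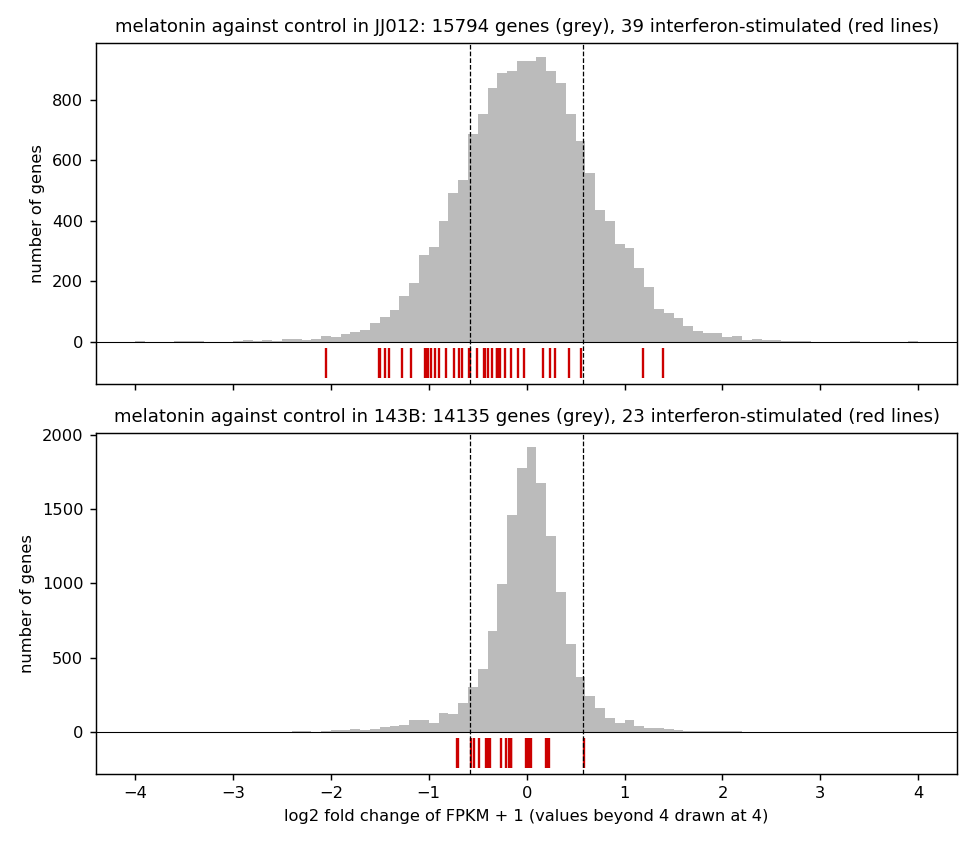
Number of genes (y axis) by log2 fold change of FPKM + 1 (x axis) for melatonin against control, JJ012 above and 143B below. Grey bars are all genes past the level filter, red lines the 39 and 23 interferon-stimulated genes among them, and dashed lines the 0.58 threshold. In JJ012 most red lines lie left of 0, and in 143B most lie within the dashed lines.

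The highest levels belonged to small membrane and mitochondrial proteins. IFI6, a protein known to protect cells from apoptosis, stood at 2285.42 FPKM in the JJ012 control, rank 11 of all genes, at 838.89 FPKM after melatonin, and at 2.49 and 3.05 FPKM in the 143B control and melatonin libraries. BST2, tetherin, which holds budding virus particles on the cell surface, stood at 873.28, 329.63, 0 and 0.05 FPKM in the same order. Both were high in JJ012, lower there after melatonin, and close to absent in 143B, where BST2 held 0 and 1 count. The fold changes in JJ012 were -1.44 for IFI6 (CPM 2.72-fold lower, log2 interval -1.47 to -1.42) and -1.40 for BST2 (2.65-fold lower, -1.45 to -1.36).

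The IFITM proteins sit in membranes and hinder virus fusion. IFITM1 stood at 771.38 and 380.18 FPKM in JJ012 without and with melatonin, and at 12.88 and 7.45 FPKM in 143B. IFITM3 stood at 290.80 and 127.52 FPKM in JJ012, and at 38.59 and 29.46 FPKM in 143B. IFITM2 stood at 154.84 and 74.83 FPKM in JJ012, and at 38.91 and 25.97 FPKM in 143B. All 3 were lower after melatonin in JJ012, by -1.02, -1.18 and -1.04 on the log2 scale. In 143B IFITM1 alone passed the threshold (-0.72), with IFITM2 at -0.57 and IFITM3 at -0.38, and the counting intervals of all 3 lay below 0 in both lines. These genes lie beside each other on chromosome 11 (644 bases between IFITM1 and IFITM2, 4404 between IFITM1 and IFITM3) and are alike in sequence, so the split of reads among them is uncertain, as it is within the IFIT, OAS, GBP, MX and SAMD9 families. In the same role group, RSAD2 (viperin, 0.86 and 0.59 FPKM in JJ012, 0.02 and 0.11 FPKM in 143B) and CMPK2, a mitochondrial nucleotide kinase (at most 12 counts in any library), did not pass the filter in any comparison.

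ISG15, a ubiquitin-like protein that is joined to newly made proteins, stood at 184.79 FPKM in the JJ012 control, 75.95 FPKM after melatonin, and 8.93 and 7.86 FPKM in 143B. Its JJ012 fold change was -1.27 (CPM 2.43-fold lower, log2 interval -1.38 to -1.18), and its 143B interval held 0. USP18, the protease that removes ISG15 and restrains interferon receptor signalling, stood at 3.62 and 1.29 FPKM in JJ012 (-1.01), and at 0.45 and 0.40 FPKM in 143B. The gene for the ligase that attaches ISG15 went the other way between the lines. HERC5 held 1 count in each JJ012 library and stood at 7.36 and 6.47 FPKM in 143B. HERC6, its neighbour on chromosome 4, stood at 1.88 and 1.34 FPKM in JJ012 and 0.51 and 0.63 FPKM in 143B, and was not called in either line after melatonin.

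Among the other interferon-induced genes, 6 of the 8 that passed the filter in JJ012 were lower after melatonin, IFI6 included. The share over all genes was 18.6%. IFI27, a mitochondrial and nuclear membrane protein, had the largest change of the 39 on the log2(FPKM + 1) scale, from 90.64 to 21.15 FPKM (-2.05; CPM 4.29-fold lower, log2 interval -2.18 to -2.02), and stood at 0.80 and 0.56 FPKM in 143B. IFI35 stood at 28.04 and 9.30 FPKM in JJ012 (-1.50), and at 0.32 and 0.74 FPKM in 143B. IFI44 stood at 83.46 and 41.82 FPKM in JJ012 (-0.98), and at 30.02 and 35.39 FPKM in 143B. The neighbouring IFI44L was not called: it stood at 33.35 and 28.56 FPKM in JJ012 (-0.22, or 0.05 as TPM), and held 0 and 1 count in 143B. With the trend of all genes with exonic length subtracted, the 2 were close in JJ012, IFI44 at -0.61 and IFI44L at -0.57. The remaining lower genes were XAF1, a partner of the apoptosis inhibitor XIAP (1.34 to 0.55 FPKM, -0.59), and SAMD9L (1.98 to 0.85 FPKM, -0.69), while its paralogue SAMD9 (1.31 and 0.55 FPKM) stayed just inside the threshold, although the CPM of both was lower by like amounts (2.32-fold for SAMD9L and 2.38-fold for SAMD9). EPSTI1, at 0.25 FPKM or less in all 4 libraries, did not pass the filter.

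Genes that bind, cut or mark viral RNA were lower in 4 of 10 cases in JJ012 and higher in none. Of all genes, 18.6% were lower and 19.6% higher there. IFIT1, which binds RNA lacking the methylation of host caps, stood at 25.10 FPKM in the JJ012 control and 8.20 FPKM after melatonin (-1.50; CPM 3.06-fold lower, log2 interval -1.75 to -1.48), and at 0.57 and 0.42 FPKM in 143B. Its neighbours on chromosome 10 did not pass the threshold in JJ012: IFIT3 stood at 11.55 and 9.22 FPKM (-0.30), IFIT2 at 7.14 and 5.18 FPKM (-0.40) and IFIT5 at 4.81 and 4.21 FPKM (-0.16, or 0.08 as TPM). The 4 genes of the cluster were thus unequal in their change. LIPA, on the other strand over IFIT1, IFIT2 and IFIT3, stood at 57.49 and 51.20 FPKM in JJ012, and since the strand setting of the counting was not given in the sources used here, its reads cannot be told apart from theirs where they overlap.

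The OAS enzymes make 2-5A, the signal that activates the nuclease RNase L. OAS1 stood at 3.73 and 1.83 FPKM in JJ012 (-0.74) and held 5 and 8 counts in 143B. OASL, a relative without that enzyme activity, stood at 1.72 and 0.54 FPKM in JJ012 (-0.82), and at 1.29 and 1.66 FPKM in 143B. OAS2 (6.48 and 5.19 FPKM in JJ012, -0.27) and OAS3 (3.58 and 2.58 FPKM, -0.36) did not pass the threshold. Both passed it with the trend of all genes with exonic length subtracted (-0.61 and -0.72), where OAS1 was at -1.05. The exonuclease gene ISG20 stood at 1.19 and 0.39 FPKM in JJ012 (-0.66), and at 2.80 and 1.61 FPKM in 143B (-0.54). EIF2AK2, the kinase PKR that halts translation on double-stranded RNA, was near 10 FPKM everywhere, at 9.35, 11.69, 9.84 and 10.13 FPKM. GPATCH11, on the other strand, overlaps it and stood at 3.96 to 4.79 FPKM.

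In the large GTPase group none of the 3 genes past the filter in JJ012 was called. MX2, which blocks nuclear entry of viral genomes, stood at 7.60 and 5.39 FPKM (-0.43), GBP2 at 3.71 and 2.48 FPKM (-0.44) and GBP1 at 1.85 and 2.2 FPKM (0.17). Less the trend of all genes with exonic length, MX2 (-0.76) and GBP2 (-0.62) were past the threshold, and GBP1 was at 0.01. MX1, widely used as a marker of interferon exposure, was at 0.28 and 0.27 FPKM in JJ012 and at 0.14 and 0.09 FPKM in 143B. In the same JJ012 control library, IFI6, BST2 and IFITM1 ranked 11, 22 and 26 of all genes by FPKM.

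The genes of the PARP9, DTX3L and PARP14 neighbourhood on chromosome 3 contained one of the 2 that were higher. DTX3L, a ubiquitin ligase that works as a complex with PARP9, stood at 15.39 FPKM in the JJ012 control, 36.45 FPKM after melatonin, and 8.05 and 5.88 FPKM in 143B. It was higher in JJ012 by 1.19 (CPM 2.37-fold, log2 interval 1.16 to 1.33). PARP14 stood at 9.52 and 14.48 FPKM in JJ012 (0.56, just inside the threshold) and at 9.55 and 5.48 FPKM in 143B, where it was lower (-0.70). PARP9 stood at 8.98 and 10.78 FPKM in JJ012 (0.24, or -0.01 less the trend of all genes with exonic length) and at 1.38 and 0.70 FPKM in 143B (-0.49). DTX3L and PARP9 lie on opposite strands and overlap by 240 bases. TRIM21, an intracellular antibody receptor, was lower in JJ012 (18.64 to 9.25 FPKM, -0.94) and stood at 12.10 and 12.52 FPKM in 143B. TRIM22, which overlaps TRIM5 on the other strand, stood at 1.17 and 1.13 FPKM in JJ012 and held at most 4 counts in 143B. PARP12 held 0 counts in both JJ012 libraries and stood at 13.07 and 11.42 FPKM in 143B.

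The transcription factors of the pathway did not move together. IRF3, which is activated by phosphorylation downstream of nucleic acid sensors, stood at 26.17 and 13.57 FPKM in JJ012 (-0.90), and at 12.28 and 14.45 FPKM in 143B (0.22). BCL2L12, which overlaps it on the other strand, stood at 3.16 FPKM or less. IRF7, the factor that amplifies interferon production, stood at 0.34 and 2.51 FPKM in JJ012 (1.39), from 17 and 106 counts, and at 6.99 and 7.07 FPKM in 143B. Its CPM in JJ012 was 7.42-fold higher after melatonin (log2 interval 2.15 to 3.72), yet still below that of either 143B library. Of the ISGF3 subunits, STAT2 stood at 11.28 and 10.55 FPKM in JJ012 (-0.09, or 0.17 as TPM) and 5.69 and 4.76 FPKM in 143B (-0.22), and IRF9 at 3.95 and 5.67 FPKM in JJ012 (0.43) and 3.07 and 2.40 FPKM in 143B (-0.26). IRF1 was under 1 FPKM in every library (0.94, 0.94, 0.60 and 0.45 FPKM).

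Of the 3 RNA sensors, IFIH1 and DHX58 passed the level filter in JJ012 and were not called, and none passed it in 143B. IFIH1 (MDA5, a sensor of long double-stranded RNA) stood at 11.02 and 8.74 FPKM in JJ012 (-0.30) and at 0.78 and 0.67 FPKM in 143B. DHX58 (LGP2, which modulates MDA5) stood at 3.09 and 1.88 FPKM in JJ012 (-0.51, or -0.69 and called at a pseudocount of 0.1 FPKM) and held 6 and 4 counts in 143B. DDX58 (RIG-I, a sensor of RNA with 5′ triphosphate) was at 0.21 and 0.19 FPKM in JJ012 and 0.49 and 0.34 FPKM in 143B. IFIH1 was thus the sensor with the highest level in each JJ012 library, and none reached 1 FPKM in 143B.

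Fold changes in JJ012 tended to be higher for genes of larger exonic size. The Spearman correlation of log2 fold change with exonic size was 0.399 over 11534 protein-coding genes. It is given as a description, since all points share the same 2 libraries. ISG15, IFI6 and BST2 are short (867, 936 and 1101 bases of exonic sequence, where the 47 genes have a median of 5659). With the running median over length subtracted, 23 of the 39 genes were lower and 2 higher, where 16.4% of all genes were lower and 18.1% higher. The median of the 39 was then -0.62, beside 0 for all genes. Lower only at this setting were OAS2, OAS3, MX2, GBP2 and SAMD9. IFI6 was then at -1.13, BST2 at -1.05, ISG15 at -0.96 and IFI27 at -2.01. With TPM, which moved the median of all genes in JJ012 from 0.01 to 0.27, 19 were lower and 5 higher, where 15.7% of all genes were lower and 34.6% higher.

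**Figure D4:**
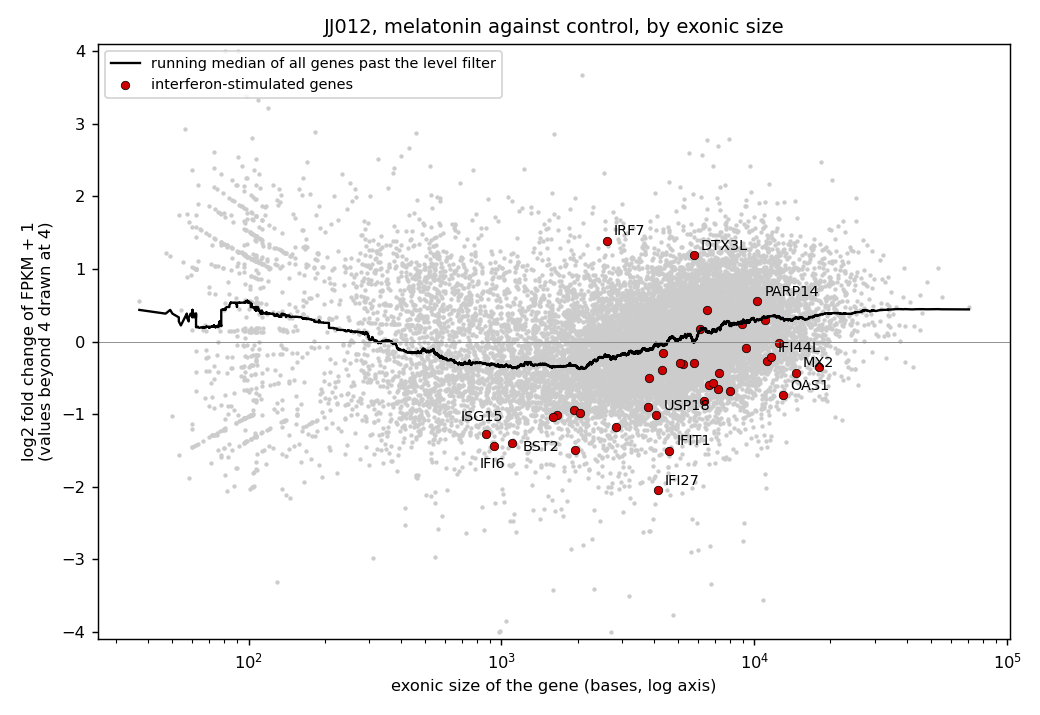
Log2 fold change of FPKM + 1 in JJ012, melatonin against control (y axis), by exonic size on a log axis (x axis). Grey points are all 15794 genes past the level filter, the black line is their running median, and red points are the 39 interferon-stimulated genes, most of which lie below the line.

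Summed levels of markers of other cell types were low beside those of the interferon-stimulated genes, and were lower after melatonin in JJ012 for all 3 marker lists. Of 10 blood cell markers, 2, 2, 0 and 1 reached 1 FPKM in the JJ012 control, JJ012 melatonin, 143B control and 143B melatonin libraries, with sums of 15.54, 6.89, 1.76 and 1.46 FPKM. Most of the JJ012 sum was CD3E (9.73 and 3.28 FPKM), while PTPRC (CD45), which all white blood cells carry, held 42, 4, 6 and 2 counts, and HBB held 0 in all. CD14 (0.51 and 0.53 FPKM) and CD163 (3 and 8 counts) were not lower. Sums over 3 endothelial markers were 2.23, 0.93, 2.40 and 2.05 FPKM, and over 3 epithelial markers 0.16, 0.05, 1.40 and 0.83 FPKM. Their part in the result was not tested.

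In 143B, melatonin against control, 23 of the 47 genes passed the level filter, 21 of them by both libraries and 2 by the control alone. Lower were 2 (8.70%), higher was 1 (4.35%), and 20 were neither, where 6.65% of all 14135 genes were lower and 6.09% higher (2.60% and 3.48% of protein-coding genes). The lower genes were IFITM1 and PARP14. The higher gene was IFIT2, at 1.02 and 2.03 FPKM, from 70 and 151 counts (0.58; CPM 2.00-fold, log2 interval 0.58 to 1.43), and it no longer passed the threshold less the length trend (0.53). The median over the 23 was -0.16, beside 0.03 for all genes. Over the floor in both libraries were 38 genes, with 15 counting intervals below 0, 5 above and 18 that held 0, against 20.1% below and 24.1% above for all genes. With TPM 6 of the 23 were lower and 1 higher, where 10.8% of all genes were lower and 8.58% higher.

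Over the floor in all 4 libraries were 36 genes. For 9 of them (25.0%) the counting intervals lay on opposite sides of 0 in the 2 lines, as they did for 17.3% of all 16000 such genes. IFI35, IFI44, IRF3, IFIT2 and OASL were below 0 in JJ012 and above 0 in 143B, whereas DTX3L, PARP14, PARP9 and IRF9 were above 0 in JJ012 and below 0 in 143B, with the exception that PARP9 was at -0.01 in JJ012 less the length trend. The 3 chromosome 3 neighbours were thus on the same side of this split. Intervals lay below 0 in both lines for 7 of the 36 (19.4%), against 7.71% of all genes, namely STAT2, OAS3, ISG20, GBP2 and the 3 IFITM genes, although STAT2 was above 0 in JJ012 as TPM. No gene of the 36 was above 0 in both lines. The difference between the lines' changes was not tested.

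**Figure D5:**
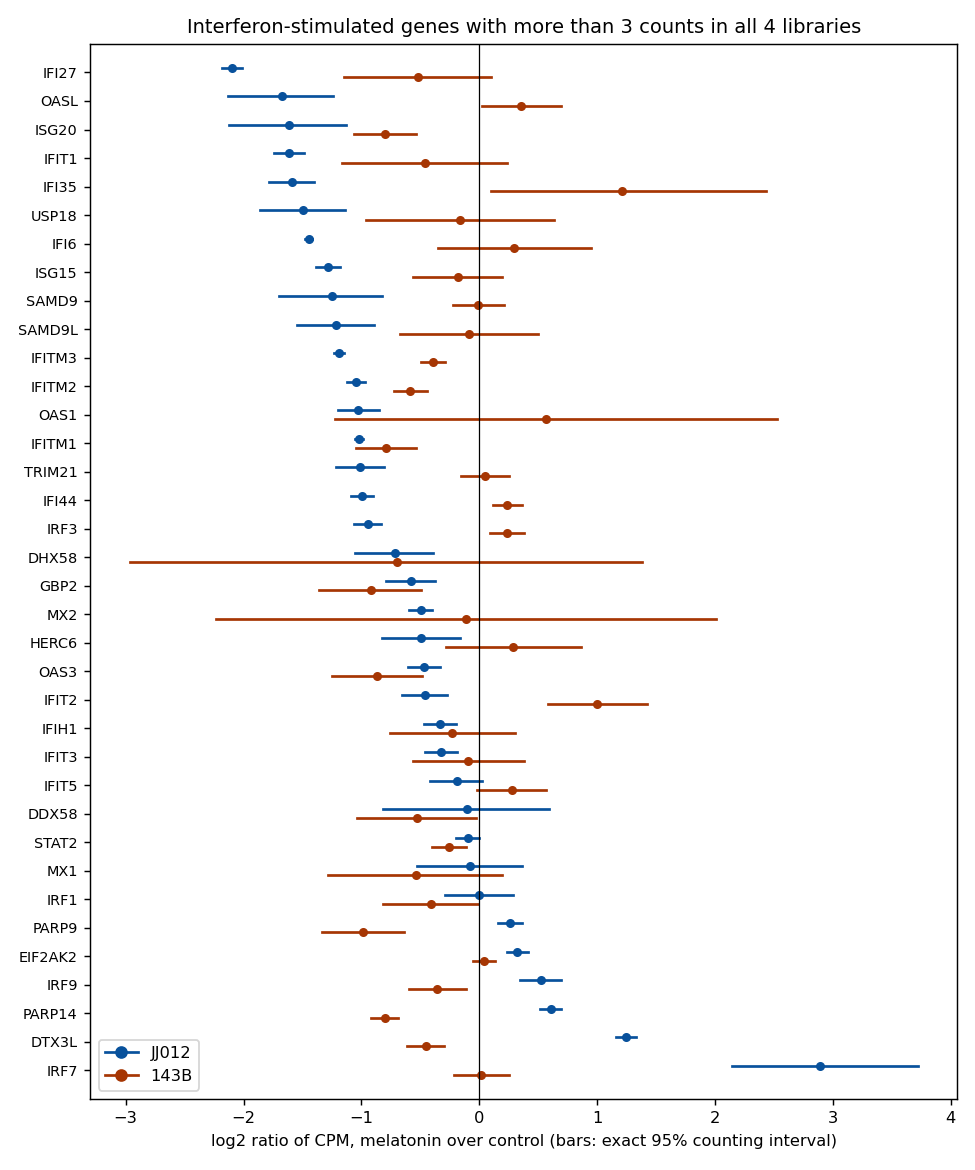
Log2 ratio of CPM, melatonin over control (x axis), for the 36 interferon-stimulated genes with more than 3 counts in all 4 libraries, JJ012 in blue and 143B in brown. Points are the ratios of 1 library to 1 library and bars are exact 95% counting intervals. Blue points lie mostly left of 0, with DTX3L and IRF7 farthest to the right, and brown points lie on both sides.

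Between the untreated lines, most of the genes were lower in 143B. This comparison uses the same JJ012 control and 143B control libraries as the comparisons above. Of 41 genes past the filter, 32 were lower in 143B (78.0%), 5 were higher (12.2%) and 4 were neither, where 41.3% of all 16929 genes were lower and 27.4% higher (39.6% and 25.1% of protein-coding genes). Their median log2 difference was -1.48 (-0.29 for all genes). The JJ012 library alone put 18 of the 41 past the filter, the 143B library alone 3, and among the 20 that passed by both, 14 were lower and 2 higher in 143B. Counting intervals lay below 0 for 32 and above 0 for 4 of the 38 genes over the floor in both, against 45.7% and 33.2% of all genes. With TPM 29 were lower and 5 higher, where 36.2% of all genes were lower and 37.2% higher.

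BST2 had 18478 counts in the JJ012 control and 0 in the 143B control, at least 5092-fold lower CPM, with the floor of 3 counts set for the 143B library. IFI44L had 7442 and 0 counts (at least 2051-fold lower) and XAF1 had 170 and 0 (at least 46.9-fold lower). IFI6 was 919-fold lower in 143B (log2 interval -10.3 to -9.38) and MX2 352-fold (from 2128 counts to 5, -10.1 to -7.23). OAS1 was 154-fold lower (from 934 counts to 5, -8.90 to -6.04) and OAS2 116-fold (from 1399 to 10, -7.92 to -5.97). IFI27 was 113-fold lower (-7.23 to -6.43) and IFI35 87.2-fold (from 1055 counts to 10, -7.51 to -5.56). IFITM1 was 59.9-fold lower (-6.06 to -5.75), IFIT1 43.8-fold (-5.93 to -5.01) and ISG15 20.7-fold (-4.64 to -4.11). Genes of every role group were among those lower in 143B, but the size ran from these values down to 1.54-fold for TRIM21, which was 0.34 higher in 143B less the length trend.

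The 5 genes higher in 143B were PARP12, HERC5, IRF7, SAMD9 and ISG20. PARP12 had 0 counts in the JJ012 control and 1144 in the 143B control, at least 461-fold higher CPM. HERC5 had 1 and 557 counts, a ratio of 674 (log2 9.40, interval 6.91 to 14.7). IRF7 was 20.6-fold higher (log2 interval 3.66 to 5.17), and ISG20 and SAMD9 were 2.36-fold and 2.32-fold higher. The 4 genes that were neither were EIF2AK2, PARP14, OASL and IRF9. The lines therefore differed in which of the genes were present as well as in their level.

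Genes around the set were read from other lists. Of all genes past the filter, 19.6% were higher and 18.6% lower after melatonin in JJ012, and 6.09% and 6.65% in 143B. Between the untreated lines, 27.4% were higher and 41.3% lower in 143B. Of 21 interferon genes, IFNE, which epithelia of the reproductive tract express, alone passed the filter in any comparison, with 38, 10, 9 and 22 counts in the JJ012 control, JJ012 melatonin, 143B control and 143B melatonin libraries, and it was lower after melatonin in JJ012 (-0.72), a call lost less the length trend (-0.40). IFNB1 held 4 counts in the JJ012 control and 0 in the other 3 libraries. The 20 interferon genes other than IFNE thus held at most 4 counts in any library. Of 9 genes for receptors and their kinases, 6 passed in JJ012, with 3 higher after melatonin: IFNGR1 (13.83 to 31.09 FPKM, 1.11), JAK1 (20.48 to 37.81 FPKM, 0.85) and JAK2 (3.84 to 6.62 FPKM, 0.65). Less the trend with exonic length, IFNGR1 was at 1.25, and JAK1 (0.55) and JAK2 (0.39) no longer passed the threshold. TYK2 was past it only then, lower at -0.62. IFNAR1, a chain of the type I receptor, stood at 5.85 and 5.66 FPKM in JJ012 and 2.72 and 2.99 FPKM in 143B, and IFNAR2, the other chain, at 0.65, 0.66, 0.92 and 1.14 FPKM. TYK2 stood at 8.58 and 6.37 FPKM in JJ012 and 13.47 and 14.31 FPKM in 143B, and JAK1 in 143B at 22.89 and 24.80 FPKM. None of the 7 genes that passed in 143B was called after melatonin. Between the untreated lines, IFNGR2 (11.97 FPKM in JJ012, 37.48 in 143B) and TYK2 (0.60, or 0.52 less the length trend) were higher and IFNAR1 lower in 143B.

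Of 13 genes for nucleic acid sensing and signalling, 9 passed in JJ012, with 2 higher and 2 lower after melatonin. Of all genes, 19.6% were higher and 18.6% lower. STING1, the adaptor of cytosolic DNA sensing, was lower (15.18 to 7.22 FPKM, -0.98), as was the kinase gene IKBKE (1.72 to 0.34 FPKM, -1.02). TRAF6 (2.57 to 6.52 FPKM, 1.08) and TICAM1 (8.45 to 15.00 FPKM, 0.76) were higher. CGAS, the DNA sensor that feeds STING1, held 0 counts in both JJ012 libraries and 372 and 388 in 143B. MAVS, the adaptor of the RNA sensors, stood at 7.69 and 8.78 FPKM in JJ012 and 15.76 and 17.71 FPKM in 143B, and the kinase gene TBK1 at 3.29 and 5.34 FPKM and at 1.02 and 0.74 FPKM. STING1 stood at 12.36 and 10.99 FPKM in 143B, where none of the 10 genes past the filter was called after melatonin. Between the untreated lines 5 of 10 were higher in 143B, led by CGAS, TRAF3 (2.33 and 10.44 FPKM) and TRAF6 (2.57 and 11.26 FPKM), and TBK1 was lower. Of all genes, 27.4% were higher and 41.3% lower there.

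Of 15 negative regulators, 11 passed in JJ012, with 2 higher and 2 lower after melatonin, beside 19.6% and 18.6% of all genes. ADAR, which edits double-stranded RNA and so keeps it from the sensors, was higher after melatonin (24.94 to 40.43 FPKM, 0.68), as was the phosphatase gene PTPN2 (5.37 to 8.53 FPKM, 0.58). Lower were the subunits of ribonuclease H2 RNASEH2C (8.97 to 4.92 FPKM, -0.75) and RNASEH2A (1.75 to 0.81 FPKM, -0.60). Less the length trend, only RNASEH2C of these 4 was still past the threshold (-0.77), with ADAR at 0.34, PTPN2 at 0.32 and RNASEH2A at -0.24. Other genes of the list passed it only then: SAMHD1 was lower (-0.72), and PIAS4 (0.69) and PTPN1 (0.62) were higher. In 143B, 10 passed, and RNASEH2C alone was called, higher at 2.06 and 3.91 FPKM (0.68). Between the untreated lines 3 were higher in 143B and 3 lower, beside 27.4% and 41.3% of all genes. The largest differences were for ADAR (24.94 FPKM in JJ012 and 4.97 in 143B), RNASEH2C (8.97 and 2.06) and SAMHD1, which degrades nucleotides (4.31 and 0.67), all lower in 143B.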

How the data were processed

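Poly(A)-selected RNA was sequenced in 4 libraries with paired ends. The authors deposited raw counts of each gene as whole numbers, and FPKM, which the deposited values show to be these counts divided by exonic length and library total (within 0.005 FPKM). The exonic size was also deposited. The submitters' processing notes name cutadapt 1.9.1, HISAT2 2.2.1, HTSeq 0.6.1, DESeq2 and hg38, without roles, and the strand setting is not given in the sources used here. A column named for the line alone was read as the control and one with the suffix T as melatonin, by the sample titles, since the table does not define the suffix, and the direction of every melatonin comparison rests on this reading.

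Depth was 15889564 to 19218343 counts. Log2 fold changes used FPKM + 1, a filter of 1 FPKM in at least 1 of the 2 libraries and a threshold of 0.58. CPM ratios had exact 95% intervals. A library with 3 counts or fewer was at the floor. No count model was fitted, since the quasi-likelihood test of edgeR requires replicates. Gene types were from GENCODE 29, and promoters from RefSeq (first listed window of a gene). The planned design assumed FPKM, and counts were used as well. Procedures were tested on simulated data.

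The 47 genes and the other lists were chosen with earlier results of these data known. Values in every library are given for the 5 genes with the highest level in any library, up to 10 with the largest change per comparison, the transcription factors and sensors, and genes with opposite directions in the lines. The rule gives the others by group, and the single values printed for them, HERC5 included, were chosen after they were seen. In the other lists up to 3 genes past the threshold per comparison were named, beside the main receptor, sensor and interferon genes. TICAM1, PTPN2, PIAS4 and PTPN1 were added after their values were seen. Alternatives were a threshold of 1, TPM, CPM, protein-coding genes alone, a filter of 5 FPKM or none, a pseudocount of 0.1 FPKM, and subtraction of the running median of fold change along exonic length. A filter on the mean of the 2 libraries was added after seeing the data. The software was matplotlib 3.10.9, pandas 2.3.3, scipy 1.17.1 and numpy 2.4.6 under Python 3.11.15.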

Additional observations from a re-analysis of the deposited data

Results flagged for a closer look

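The 9 genes whose counting intervals lay on opposite sides of 0 in the 2 lines are listed for that reason, and the difference itself was not tested. They are 25.0% of the 36 genes over the floor in all 4 libraries, beside 17.3% of all 16000 such genes. The values are log2 ratios of CPM, melatonin over control. Lower in JJ012 and higher in 143B were IFI35 (-1.59 and 1.21), OASL (-1.67 and 0.36), IFI44 (-1.00 and 0.24), IRF3 (-0.95 and 0.24) and IFIT2 (-0.46 and 1.00). Higher in JJ012 and lower in 143B were DTX3L (1.24 and -0.45), PARP14 (0.61 and -0.80), IRF9 (0.52 and -0.35) and PARP9 (0.26 and -0.98). IFI35 rested on 10 and 25 counts in 143B, the fewest of the 9. PARP9 was at -0.01 in JJ012 on the log2(FPKM + 1) scale less the length trend.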

How the results depend on the processing

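No paired analysis was possible because each group held 1 library, and no library could be left out. Brackets give the share of all genes called in the same direction at the same setting. In JJ012, 18 genes were lower (18.6%) and 2 higher (19.6%). There, 1 was higher at a filter of 5 FPKM (22.1%), 5 were higher with TPM (34.6%) and 10 lower at a threshold of 1 (6.88%). In 143B, 2 were lower (6.65%) and 1 higher (6.09%). There, 6 were lower at a pseudocount of 0.1 FPKM (10.1%), 6 with TPM (10.8%), 5 with CPM (5.07%) and 0 at a threshold of 1 (2.74%). Higher were 0 at a filter of 5 FPKM (3.95%), at a threshold of 1 (1.71%) and less the length trend (5.74%). Among protein-coding genes alone, 3.48% of all genes in 143B were higher and 2.60% lower. Between the untreated lines, the median of -1.48 became -2.62 at a pseudocount of 0.1 FPKM, -2.37 at a filter of 5 FPKM and -2.56 with CPM. The counts became 3 higher (28.9%) and 21 lower (40.5%) at 5 FPKM, and 3 higher at a threshold of 1 (18.5%). TRIM21 turned from -0.58 to 0.34 there less the length trend. The causes were not tested. The filter on the mean of the 2 libraries, chosen after seeing the data, gave 2 higher (18.8%) and 16 lower (17.1%) in JJ012. It gave 1 (4.94%) and 2 (5.11%) in 143B, and 5 (26.8%) and 29 (39.4%) between the untreated lines. Below 3 counts per library (0.156 to 0.189 CPM) no difference could be seen.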
